A study of Mus musculus with 6 samples.

Results

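The genes described here build, fold and clear proteins in the endoplasmic reticulum (ER), and were followed in erythroblasts, the last nucleated stage before the red cell, of mice with a mutant ribosomal protein. They are 37 genes taken by function, and a probe set annotated to the gene alone was measured for 37 of 37, out of 12393 genes in all. Together they have 80 probe sets of 22626 tested. Ero1a and Ufd1 are the current symbols of the genes listed under the older names Ero1l and Ufd1l. A further probe set, annotated to Sec61b together with another gene, was left out.

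Expression was measured by array in CD71 positive cells sorted from bone marrow, with 3 wild type and 3 mutant RPS19 samples and 1 array each. All 6 samples are of the FVB/N strain, and the mutant mice express an RPS19 transgene with the change R62W, a change in a protein of the small ribosomal subunit studied in Diamond-Blackfan anaemia. The sources used here do not give the promoter of the transgene, the level of its protein or the age of the mice. One tag recurs in all wild type descriptions, whereas each mutant sample has a tag of its own, and the meaning of the tags is not stated. Nor do the labels state that each sample is a different animal, so the p-values measure the spread between these arrays, which in the wild type group may be technical. Mutant replicate 3 alone read the Y-linked Eif2s3y (8.34) above Xist (5.78), so it did not come from the same animal as the other mutant samples.

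Secreted and membrane proteins enter the ER through the Sec61 channel, are folded there by chaperones and disulfide isomerases, and are withdrawn to the cytosol for destruction when folding fails. The unfolded protein response adjusts this machinery to demand: the sensors IRE1 alpha and ATF6 and the transcription factor XBP1 raise the transcription of many of its genes. Plasma cells and granule-forming myeloid cells are known for a large ER, whereas maturing erythroblasts make mostly cytosolic haemoglobin and discard their ER before they become red cells.

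Many ER genes carry the ER stress response element (ERSE), which ATF6 and XBP1 bind, and the element was looked for because it ties the sensors to their targets. It was searched as CCAAT, then 9 bases of any kind, then CCACG, on both strands of RefSeq promoter windows (GRCm38.p6, 250 bases before to 50 after a start). Of 30 members with such a window 6 held it, against 37 of 27025 genes (0.137%). The 7 other members had no window in that table. The 6 sites are shown on the strand of their gene with 15 bases on either side. Capitals mark the fixed ends, which read CGTGG and ATTGG where the element lies on the opposite strand.
Calr (chr8:84847060-84847108, minus strand): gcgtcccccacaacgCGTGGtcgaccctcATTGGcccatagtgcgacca
Canx (chr11:50325785-50325833, minus strand): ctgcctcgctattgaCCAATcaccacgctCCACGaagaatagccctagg
Creld2 (chr15:88819505-88819553, plus strand): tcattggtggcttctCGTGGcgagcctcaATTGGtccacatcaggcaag
Derl3 (chr10:75893227-75893275, plus strand): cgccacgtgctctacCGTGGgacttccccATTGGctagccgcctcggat
Pdia6 (chr12:17266476-17266524, plus strand): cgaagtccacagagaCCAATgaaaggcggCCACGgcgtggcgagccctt
Syvn1 (chr19:6046517-6046565, plus strand): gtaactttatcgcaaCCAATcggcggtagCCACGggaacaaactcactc

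The elements began 44 bases (Syvn1) to 162 bases (Calr) before the start. The related ERSE-II, searched as ATTGG, 1 base and CCACG, was found in Herpud1 alone among the members and in 12 of 27025 genes, and its window is shown because Herpud1 is the classic gene with this form.
Herpud1 (chr8:94386362-94386402, plus strand): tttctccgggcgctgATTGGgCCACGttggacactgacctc

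The core TGACGTGG, an XBP1 motif, was found in Vcp among the members (0.714% of all genes) and the cyclic AMP element TGACGTCA in 0 of the 30 (2.03% of all genes). Among all promoters 0 held ERSE with ERSE-II, and 2 held ERSE with TGACGTGG. A match to these letters is a description and not a measured site.

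The arrays differed in ways that touch every result below. The SD over genes of the log2 difference between 2 arrays was 0.14 to 0.18 among wild type arrays and 0.34 to 0.51 among mutant arrays, against 0.36 to 0.42 between the groups. The 3' minus 5' difference of the Gapdh control probe sets was 0.25 to 0.31 on mutant arrays and -0.087 to -0.049 on wild type arrays, and that of actin 1.58 to 1.88 and 1.26 to 1.37. The poly-A spike controls, added before labelling, read 8.74 to 8.77 on wild type arrays and 11.58, 13.43 and 13.47 on mutant replicates 1, 2 and 3, so they separated the groups and set mutant replicate 1 apart from the others. Their part in the results was not tested. Erythroid markers (11 of 13 measured, 0 passing the test) included Tfrc, the gene of the sort marker. Tfrc read 12.12 to 12.15 in wild type and 11.45 to 11.99 in mutant samples. The probe set of the globin gene Hba-a1 read 2.87 to 3.27 on all arrays. That signal is dim, under 5, and whether this probe set detects the globin transcript was not tested. The summed linear level of the erythroid markers was 17639 to 18964 on wild type arrays, 11840 on mutant replicate 1 and 19354 and 19649 on replicates 2 and 3. Neutrophil granule markers (12 of 14 measured, 0 passing) summed to 31514 to 33801 in wild type, 50515 on mutant replicate 1, 23070 on replicate 2 and 16818 on replicate 3. Mpo, which makes the granule enzyme myeloperoxidase, read 13.08 to 13.17 in wild type and 12.38 to 13.54 in mutant samples, so granule transcripts were present in the sorted cells of both groups.

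No ER gene passed the test between mutant and wild type erythroblasts. Of the 37 genes 0 had an adjusted p under 0.05 (limma over 12393 genes, 1 probe set a gene), where 0.331% of all genes did. At an unadjusted p under 0.05 there were 8, of which 3 were higher and 5 lower in the mutant (21.6%, against 17.4% of all genes). The groups did not overlap for 9 members, 4 higher and 5 lower (24.3%, against 24.7% of all genes). The median difference was 0.026 (log2, mutant minus wild type), with 20 genes higher and 17 lower, and that of all genes was -0.0044. By these counts the members stood near the level of all genes. Without mutant replicate 1 the count of members passing was 6 (16.2%, against 9.54% of all genes).

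**Figure D1:**
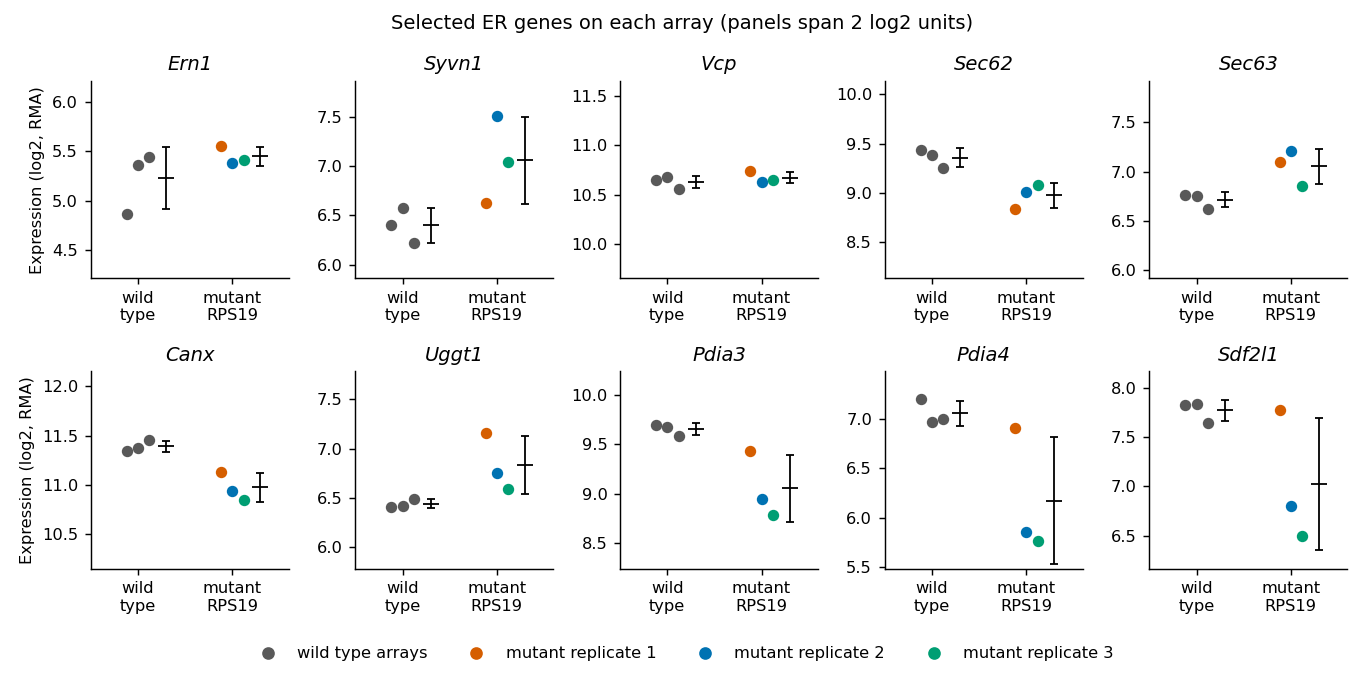
Expression (log2, y axis) of 10 ER genes on the 3 wild type (grey) and 3 mutant (coloured by replicate) arrays, with the mean and SD of each group as a bar at its right. Canx, Pdia3, Pdia4 and Sec62 are lower and Sec63, Syvn1 and Uggt1 higher on all mutant arrays, and Sdf2l1 and Pdia4 split the mutant arrays, with replicate 1 near the wild type.

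The sensor genes Ern1 and Atf6 and the transcription factor gene Xbp1 had higher mutant means, and none passed the test. Ern1, which encodes IRE1 alpha, had the lowest p of them and read 4.86, 5.36 and 5.44 on the wild type arrays and 5.56, 5.38 and 5.41 on mutant replicates 1, 2 and 3. One wild type array lay below the other five and the groups overlapped, with a difference of 0.22 ± 0.16 (SE, 95% confidence interval -0.16 to 0.60, adjusted p = 0.54, limma); it read -0.039 on the median of its 3 probe sets. Atf6, whose protein is cut from the membrane to become a transcription factor, differed by 0.23. Xbp1, the target of IRE1 alpha splicing, differed by 0.085 and spread widely: mutant replicates 1 and 2 lay above and replicate 3 below all wild type arrays, at 0.55, 0.19 and -0.48 from the wild type mean. Its 4 probe sets ranged from -0.17 to 0.48, the lowest being the next in signal, with a wild type mean of 9.46. The array does not tell spliced from unspliced Xbp1.

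Of 12 genes of ER-associated degradation 7 were higher and 5 lower, with a median difference of 0.037 and none passing. Syvn1 encodes HRD1, the ubiquitin ligase at the centre of the retrotranslocation complex, and read 6.40, 6.58 and 6.22 on the wild type arrays and 6.62, 7.50 and 7.04 on mutant replicates 1, 2 and 3. All mutant arrays were above all wild type arrays, replicate 1 only just, and the difference was 0.66 ± 0.22 (SE, 95% confidence interval 0.14 to 1.17, adjusted p = 0.19, limma), a fold of 1.58. B cell markers (12 of 14 measured, 0 passing, 11 of 12 with a higher mutant mean) summed to 876 to 954 in wild type, 979 on mutant replicate 1, 3915 on replicate 2 and 1896 on replicate 3. Syvn1 was likewise highest on replicate 2 and lowest of the mutant arrays on replicate 1, and the part of B cell RNA in this was not tested. In RNA of sorted cells, fewer cells of a type and less RNA per cell cannot be told apart.

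Sel1l, the partner of HRD1, differed by -0.16 and Herpud1, which recruits HRD1, by 0.34. Herpud1 read 8.71, 8.73 and 8.58 on the wild type arrays and 9.31, 9.32 and 8.40 on mutant replicates 1, 2 and 3, with replicates 1 and 2 above and replicate 3 below all wild type arrays. Edem1 and Edem2, which mark misfolded glycoproteins by mannose trimming, differed by -0.18 and 0.031, and the lectin gene Os9, which hands these on, by -0.22. The Derlin genes of the membrane channel had no common direction: Derl1 differed by 0.18, Derl2 by -0.22 and Derl3 by 0.22, the last pair without overlap between the groups. Derl3 was also the 1 member with a mean under 5 over the arrays, where signal is dim, and is known as a plasma cell gene. Plasma cell markers (14 of 17 measured, 0 passing) summed, without the members and Fkbp11, to 4248 to 4641 in wild type and to 2249, 4895 and 1741 on mutant replicates 1, 2 and 3. In that list Prdm1, a defining factor, read 2.99 to 3.39 on all arrays. Of the 14 measured, 7 had lower and 7 higher mutant means. This count includes the members Xbp1 and Derl3 among the higher and Fkbp11 among the lower. The antibody genes Igha, Jchain and Igk had lower readings on all mutant arrays without passing, with differences of -3.95 ± 0.67 (SE, adjusted p = 0.062, limma), -2.88 ± 0.49 (SE, adjusted p = 0.062, limma) and -1.30 ± 0.34 (SE, adjusted p = 0.12, limma), while Irf4 and Sdc1 had higher ones. The antibody gene Ighm went the other way, with a difference of 0.53. It read 10.38, 11.79 and 10.24 on mutant replicates 1, 2 and 3, against 10.10 to 10.38 in wild type. Pou2af1 (1.19) and Slamf7 (0.50) also had higher mutant means. The part of these markers in the Derl3 values was not tested. Vcp, the ATPase that pulls proteins out of the membrane, and its adaptors Ufd1 and Nploc4 differed by 0.043, 0.10 and -0.052. For Vcp the interval was -0.17 to 0.26.

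Of 8 translocation genes 4 were lower and 4 higher, none passing. Among them Sec62 was lower and Sec63 higher, whose proteins work side by side at the Sec61 channel. Sec62, which also serves as a receptor for the clearance of ER by autophagy, read 9.43, 9.39 and 9.25 on the wild type arrays and 8.84, 9.01 and 9.08 on mutant replicates 1, 2 and 3. The groups did not overlap, with a difference of -0.38 ± 0.11 (SE, 95% confidence interval -0.63 to -0.13, adjusted p = 0.14, limma). That is 1 of 4 probe sets of Sec62. The next in signal, with a wild type mean of 9.09, differed by -0.12 with overlapping groups, and the others by -0.036 and 0.011. On the mean and median of its probe sets Sec62 stood at -0.13 (adjusted p = 0.69, limma) and -0.097 (adjusted p = 0.78, limma). Sec63, which brings the chaperone BiP to the channel, read 6.76, 6.76 and 6.63 on the wild type arrays and 7.10, 7.21 and 6.86 on mutant replicates 1, 2 and 3. Here too the groups did not overlap, in the other direction, with a difference of 0.34 ± 0.12 (SE, 95% confidence interval 0.065 to 0.62, adjusted p = 0.21, limma). That is again 1 of 4 probe sets. Another, at 0.39, was also without overlap, while those at 0.16 and 0.023 had overlapping groups. On the mean and median of its probe sets Sec63 stood at 0.23 (adjusted p = 0.43, limma) and 0.25 (adjusted p = 0.35, limma).

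For the channel itself the groups overlapped on the probe sets that stand for the genes. Sec61a1, the pore, differed by 0.12 and Sec61b, a small subunit, by 0.0085 (95% confidence interval -0.34 to 0.36). The translocon-associated proteins of Ssr1, Ssr2, Ssr3 and Ssr4, which sit beside the pore and aid some substrates, differed by 0.047, -0.11, -0.26 and -0.017. For all 4 the reading was above all wild type arrays on mutant replicate 1 and below all of them on both other mutant arrays.

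Canx and Uggt1 act in the same cycle, in which calnexin and calreticulin hold glycoproteins and UGGT1 returns unfinished ones to them, and lay on opposite sides of the wild type. Canx read 11.34, 11.38 and 11.45 on the wild type arrays and 11.14, 10.94 and 10.85 on mutant replicates 1, 2 and 3. The mutant arrays were all lower, with a difference of -0.42 ± 0.11 (SE, 95% confidence interval -0.67 to -0.17, adjusted p = 0.12, limma). Uggt1 read 6.41, 6.42 and 6.49 on the wild type arrays and 7.16, 6.76 and 6.59 on mutant replicates 1, 2 and 3. The mutant arrays were all higher, with replicate 1 farthest out, and the difference was 0.39 ± 0.15 (SE, 95% confidence interval 0.042 to 0.75, adjusted p = 0.25, limma). Calr, the soluble counterpart of Canx, differed by 0.13 and lay 0.64, -0.052 and -0.21 from the wild type mean on mutant replicates 1, 2 and 3.

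Of 7 genes of disulfide formation 4 were lower and 3 higher, none passing, with Pdia3 and Pdia4 the lowest. Pdia3 encodes ERp57, the isomerase that works with calnexin and calreticulin, and read 9.69, 9.68 and 9.59 on the wild type arrays and 9.43, 8.95 and 8.78 on mutant replicates 1, 2 and 3. The groups did not overlap, and the difference was -0.60 ± 0.17 (SE, 95% confidence interval -0.99 to -0.21, adjusted p = 0.14, limma), a fold of 0.660. Pdia4, which encodes ERp72, read 7.20, 6.97 and 7.00 on the wild type arrays and 6.91, 5.85 and 5.76 on mutant replicates 1, 2 and 3. Replicate 1 lay just under the wild type and the other mutant arrays more than 1 log2 unit under it, with a difference of -0.88 ± 0.29 (SE, 95% confidence interval -1.56 to -0.21, adjusted p = 0.19, limma), a fold of 0.542. The remaining genes differed by -0.085 (Erp29) to 0.14 (P4hb, the archetype of the isomerases), with Pdia6 at 0.055, Erp44, which retrieves clients from the Golgi, at -0.035 and Ero1a, the oxidase that recharges the isomerases, at 0.026.

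Sdf2l1, a cofactor that keeps clients soluble with BiP, had the widest split of the 4 lumenal cofactors. It read 7.83, 7.83 and 7.64 on the wild type arrays and 7.78, 6.80 and 6.49 on mutant replicates 1, 2 and 3. Mutant replicate 1 lay inside the wild type range while both others lay far below it, and the difference was -0.74 ± 0.30 (SE, 95% confidence interval -1.45 to -0.04, adjusted p = 0.26, limma). Manf, a secreted stress protein that binds BiP, differed by -0.20, Creld2, another stress-induced lumenal protein, by 0.21, and Hyou1, a nucleotide exchange factor of BiP, by -0.0033.

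The mutant arrays differed from one another in the level of the ER genes. On mutant replicate 1, 27 of 37 members lay above all wild type arrays (73.0%, against 34.8% of all genes) and 7 below (18.9%, against 41.3%). On mutant replicate 3, 24 lay below all wild type arrays (64.9%, against 33.3% of all genes) and 7 above (18.9%, against 38.9%). On replicate 2, 18 lay below (48.6%, against 38.4%) and 10 above (27.0%, against 35.5%). The members' median difference from the wild type mean was 0.22, -0.053 and -0.21 on replicates 1, 2 and 3, while that of all genes was -0.033, -0.014 and 0.019. Replicate 1 gave the highest of the mutant readings for 30 members (81.1%, against 33.3% of all genes). Every glycan chaperone, disulfide and lumenal cofactor gene among the members was one of these.

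**Figure D2:**
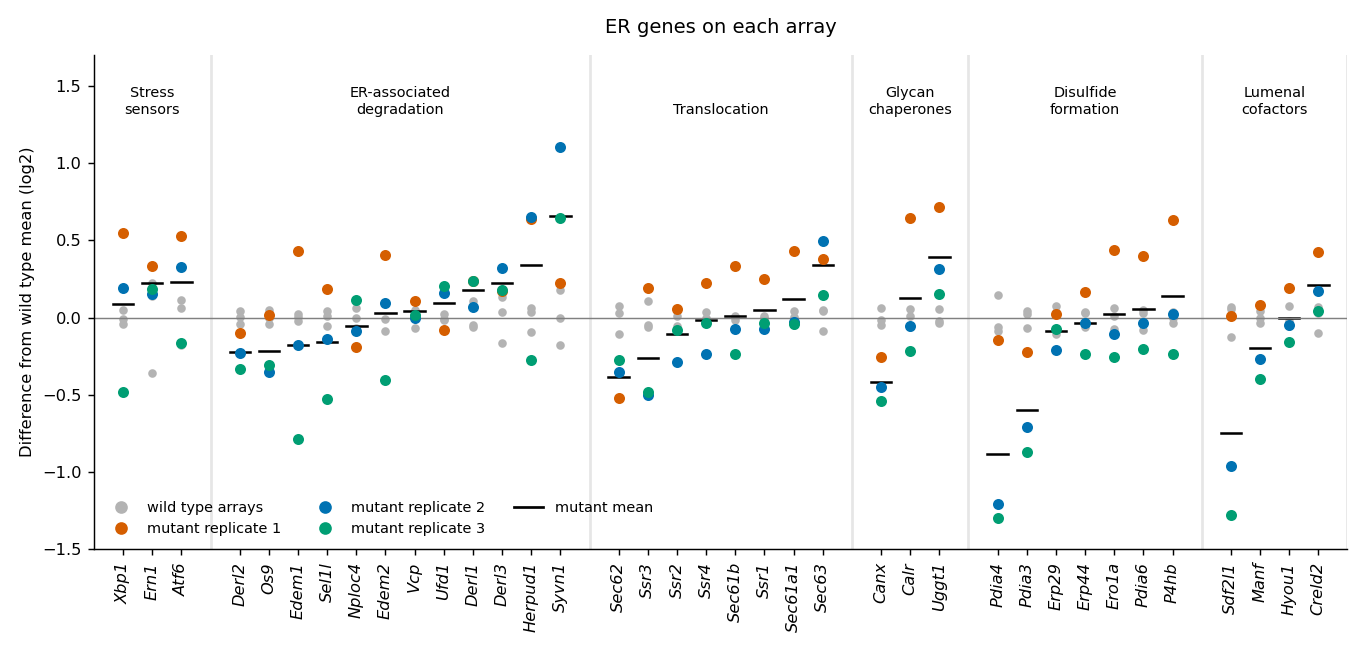
Difference of each array from the wild type mean (log2, y axis) for the 37 ER genes, grouped by role, with wild type arrays in grey, mutant arrays in colour and the mutant mean as a black bar. Mutant replicate 1 lies above all wild type arrays for 27 genes, and mutant replicate 3 lies below them for 24.

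Edem1 was an extreme case, named after its values were seen. It read 7.49, 7.52 and 7.54 on the wild type arrays and 7.95, 7.34 and 6.73 on mutant replicates 1, 2 and 3, so that the wild type arrays lay within an SD of 0.021 while the mutant arrays had an SD of 0.61 and fell on both sides. The second probe set of Edem1 read 6.82 to 6.94 in wild type and 7.22, 7.17 and 6.69 on mutant replicates 1, 2 and 3. There replicate 2 lay above the wild type, the mutant SD was 0.29 and the difference 0.16. For 34 of 37 members the mutant arrays had the larger SD (91.9%, against 77.7% of all genes), with a median of 0.25 against 0.061 in wild type. The summed neutrophil granule level was likewise above the wild type range on replicate 1 and below it on replicates 2 and 3, lowest on replicate 3, and the erythroid sum was low on replicate 1. The macrophage marker sum (12 of 12 measured, 0 passing) was 2493 to 2784 in wild type and 2838, 2693 and 1608 on the mutant replicates, and 12 of 12 had a lower mutant mean. On replicate 1, where that sum was highest, 9 of the 12 markers nevertheless lay below all wild type arrays and 2 above. The part of these cells' RNA in the members' spread was not tested.

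**Figure D3:**
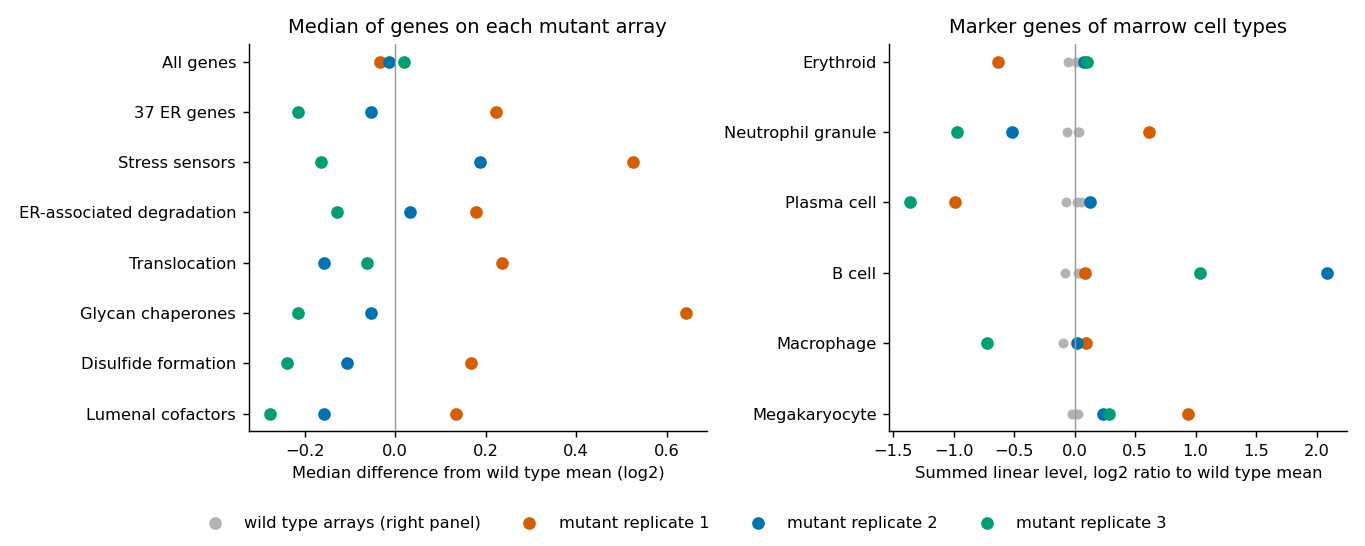
Left, median difference from the wild type mean (log2, x axis) of all genes, of the 37 ER genes and of each role on mutant replicates 1, 2 and 3. Right, summed linear level of marker genes of 6 marrow cell types on each array, as a log2 ratio to the wild type mean; the ER genes and the neutrophil granule genes both have replicate 1 highest and replicate 3 lowest (medians 0.22 and -0.21 for the ER genes).

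Without mutant replicate 1, 6 members passed the test in limma (16.2%, against 9.54% of all genes), 5 lower (3.70% of all genes) and 1 higher (5.84%). Pdia4 fell, at -1.25 (adjusted p = 0.0026), as did Sdf2l1 at -1.12 (adjusted p = 0.0059) and Pdia3 at -0.79 (adjusted p = 0.0073). Canx fell too, at -0.50 (adjusted p = 0.022), and Ssr3 at -0.49 (adjusted p = 0.026). Syvn1 rose, at 0.87 (adjusted p = 0.022). Over all alternatives the adjusted p of these ran from 0.0026 to 0.45 for Pdia4, 0.0059 to 0.57 for Sdf2l1, 0.0073 to 0.43 for Pdia3, 0.021 to 0.41 for Canx, 0.026 to 0.81 for Ssr3 and 0.021 to 0.51 for Syvn1. The members' median became -0.14, with 25 of 37 lower, while that of all genes was -0.0030. Neutrophil granule sums on the 2 mutant arrays left were 23070 and 16818, both under the wild type range. Without mutant replicate 3 the 1 member to pass was Herpud1, which rose, at 0.64 (adjusted p = 0.046), with an adjusted p of 0.046 to 0.79 over all alternatives. That is 2.70% of members, against 1.61% of all genes in either direction and 0.968% higher. With array weights, which let the data give outlying arrays less influence, 6 passed (10.4% of all genes): Canx, Pdia3, Pdia4, Sdf2l1 and Sec62 lower (4.28% of all genes) and Syvn1 higher (6.14%). Sec62 there stood at -0.38 (adjusted p = 0.04).

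Under the remaining fits with 1 probe set a gene no member passed. The share of all genes called in them was 0.775% with a trend and robust variance prior, 0.5% when quantile normalisation was repeated without controls, 0.420% with median centring and 1.36% without dim probe sets. It was 0.0565% with a replicate block, 0.242% without mutant replicate 2 and 0% without any 1 wild type array. At an adjusted p under 0.10 no member passed either, against 3.09% of all genes.

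At the level of probe sets, 2 of 80 passed (2.50%, against 2.33% of all 22626), and both were unlike another probe set of the same gene. At an unadjusted p under 0.05 there were 19 (23.8%, against 19.1%), and 21 did not overlap between the groups (26.2%, against 26.1%). The probe set of Vcp that does not stand for the gene read 4.96, 4.80 and 4.79 on the wild type arrays and 6.71, 6.98 and 7.04 on mutant replicates 1, 2 and 3. It rose by 2.06 ± 0.12 (SE, 95% confidence interval 1.78 to 2.34, adjusted p = 0.00073, limma), a fold of 4.16, and was called in 12 of 12 alternatives (adjusted p 3.0e-05 to 0.016). The Vcp probe set with the higher signal lay at 0.043, so the 2 probe sets of this gene differed by 2.01 in their response. The called one was dim in wild type samples, under 5 on all 3 arrays. On their mean Vcp was the 1 member called (1.05, adjusted p = 0.011, with 0.379% of all genes called), and likewise on the median of probe sets (adjusted p = 0.0054, with 0.702% of all genes called). Over all alternatives of the gene the adjusted p of Vcp ran from 0.0054 to 0.99.

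For Canx the called probe set read 9.20, 9.22 and 9.41 on the wild type arrays and 8.74, 8.21 and 8.46 on mutant replicates 1, 2 and 3. It fell by 0.81 ± 0.15 (SE, adjusted p = 0.042, limma), a fold of 0.571, and held in 5 of 12 alternatives (adjusted p 0.0035 to 0.20). The call was lost on leaving out any wild type array or mutant replicate 2 or 3, with a replicate block and with quantile normalisation repeated, while the difference stayed between -0.94 and -0.68. The third probe set of Canx differed by -0.10 with overlapping groups. It read 7.23 to 7.29 in wild type and 7.46, 6.97 and 7.07 on mutant replicates 1, 2 and 3. All 3 probe sets thus had lower mutant means, by unequal amounts, but the third had replicate 1 above the wild type. The sources used here do not say which part of a transcript each probe set reads.

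**Figure D4:**
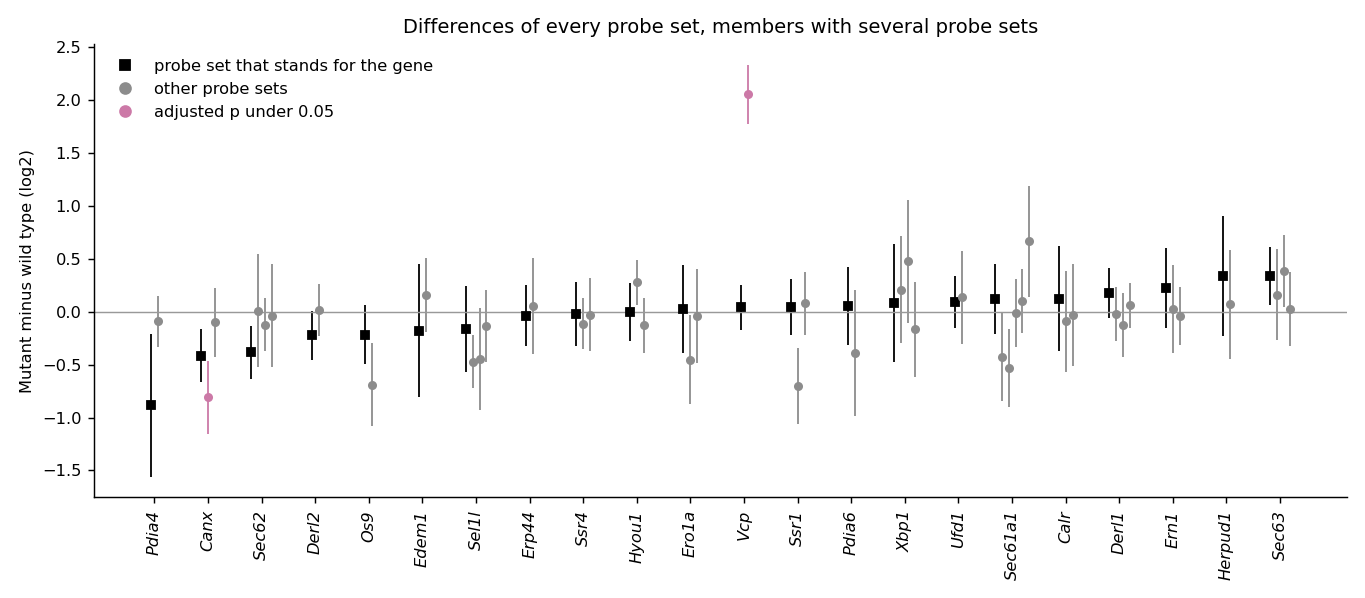
Difference between mutant and wild type (log2, y axis, with 95% confidence intervals) for every probe set of the 22 members with more than 1, squares marking the probe set that stands for the gene. The called probe sets of Vcp (2.06) and Canx (-0.81) lie away from the squares of their genes, and Sec61a1 spans -0.53 to 0.67.

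Of the 22 members with several probe sets, 13 had both signs among them (59.1%, against 52.8% of such genes in all), and the median range within a gene was 0.38 (0.27 for all such genes). Sec61a1, with 6 probe sets, ranged from -0.53 to 0.67. At both of these ends the groups did not overlap, in opposite directions, and neither passed. Ssr1 had probe sets at 0.047, 0.08 and -0.70, the last with an adjusted p of 0.067. Os9 and Sel1l each had a probe set lower than the one that stands for the gene, at -0.69 (adjusted p = 0.084) and -0.47 (adjusted p = 0.072). Ero1a had probe sets at 0.026, -0.039 and -0.45, and Hyou1 at -0.0033, 0.28 and -0.13. Those at -0.45 and 0.28 had no overlap between the groups, and neither passed (adjusted p = 0.23 and 0.15, limma). The split of Gapdh control signal between transcript ends given above also differed between the groups, and its part in these disagreements was not tested.

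Members with ERSE lay on both sides of the wild type, as did those without. The 6 with the element had a median difference of 0.17, with Canx lower and 5 higher, and the 24 without a match had a median of -0.0042, 12 higher and 12 lower. Syvn1 and Canx, whose elements are printed above, read on opposite sides of the wild type on all mutant arrays. On mutant replicates 1, 2 and 3 the medians were 0.31, 0.068 and -0.081 with the element and 0.21, -0.080 and -0.27 without.

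Other genes of the pathway, listed by function, gave 1 call among 85 measured. Rnf5, a membrane-bound ubiquitin ligase of ER-associated degradation, fell by 0.73 ± 0.10 (SE, adjusted p = 0.048, limma) from a wild type mean of 8.23, and was the 1 called of 21 further degradation genes (median 0.0076, 10 lower). It read 8.26, 8.27 and 8.15 on the wild type arrays and 7.40, 7.46 and 7.64 on mutant replicates 1, 2 and 3, all mutant arrays being lower. The call was lost on leaving out any wild type array or mutant replicate 2 and with a replicate block (adjusted p 0.0039 to 0.29 over 14 alternatives, difference -0.80 to -0.68). Edem3 was next, at -0.46 ± 0.09 (SE, adjusted p = 0.079, limma). Of 20 other genes of the unfolded protein response 0 passed, with 9 lower and a median of 0.027. Dnajc10, a disulfide reductase, had the lowest p, at -0.51 ± 0.10 (SE, adjusted p = 0.076, limma), followed by the transcription factor gene Creb3 at 0.39 ± 0.11 (SE, adjusted p = 0.15, limma).

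Of 23 other genes of targeting, signal cleavage and glycosylation 0 passed, 14 were lower and the median was -0.11. The signal peptidase subunit genes Spcs2 and Spcs1 had the lowest p, at -0.53 ± 0.12 (SE, adjusted p = 0.10, limma) and -0.40 ± 0.10 (SE, adjusted p = 0.10, limma). Of 21 other folding and glycan trimming genes 0 passed and 7 were lower, with a median of 0.044. Sil1, an exchange factor of BiP, was at 0.71 ± 0.14 (SE, adjusted p = 0.083, limma) and Qsox1, a sulfhydryl oxidase, at -0.58 ± 0.13 (SE, adjusted p = 0.093, limma).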

How the data were processed

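Arrays of 3 wild type and 3 mutant RPS19 samples were used. GCOS, RMA and Affymetrix Expression Console are named in the submitters' processing notes, and the authors deposited log2 values, 1 column an array. RMA corrects background, normalises quantiles across arrays and summarises probes, which can hide global shifts. The sources used here name no versions and do not say which arrays were normalised together. Of 22690 probe sets 64 controls were left out. The platform annotation gave 1 symbol for 20380, several for 691 and none for 1555, and Entrez identifiers changed 0 symbols against GRCm38.p6.

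For each gene the probe set with the highest mean stood for it, with no filter on low values in the main fit; 36 of 37 members had a mean of at least 5. Mutant was set against wild type in R 4.3.3 by lmFit and eBayes of limma 3.58.1 (two-sided, no covariate), over all genes and over all probe sets, with Benjamini-Hochberg adjustment and a threshold of 0.05. The fit was tested on simulated data with the group SDs as measured and 200 of 12393 genes changed. It recovered 66% of changes of 1 log2 unit and 96% of changes of 2, beside 30 false calls. The noise was drawn for each gene on its own. Differences that an array shares over many genes were not simulated, so these rates may not carry over to these data. Members, gene lists and tests were chosen with earlier results of these data known, so lists are described by counts and medians, without a test. Marker levels are sums of linear values in arbitrary units. Values on every array are given for members called in either fit or with an unadjusted p under 0.05, and for the lowest p in a role without one; in each further list the 2 genes with the lowest p are named. Alternatives covered the variance prior, array weights, normalisation, a filter at 5, probe set choice, the threshold, a replicate block and leaving out each array. Protein sequences were not analysed here. Python 3.11.15, pandas 2.3.3 and matplotlib 3.10.9 served for summaries and plots. With 3 arrays a group, their number limits precision.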

Additional observations from a re-analysis of the deposited data

How the results depend on the processing

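The count of ER genes called, 0 of 37, was 6 with array weights, 1 on the mean and 1 on the median of all probe sets, and ran from 0 to 6 on leaving out each array. It was 0 under the other alternatives run. The count of their called probe sets, 2 of 80, was 15 with array weights, 1 when quantile normalisation was repeated without controls, 6 at an adjusted p under 0.10 and 1 to 15 on leaving out each array. The members' median, 0.026, ran from -0.14 to 0.087 on leaving out each array, and from -0.066 (array weights) to 0.026 under the others.

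Over all genes 41 were called, and 96 with the trend and robust variance prior, 1292 with array weights, 62 when quantile normalisation was repeated, 99 without dim probe sets, 87 on the median of probe sets, 383 at an adjusted p under 0.10 and 0 to 1182 on leaving out each array. Over all probe sets 528 were called, and 2667 with array weights, 1386 at an adjusted p under 0.10 and 36 to 2544 on leaving out each array.

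Replicate numbers do not pair the samples by the labels, and the deviations of same-numbered arrays correlated at 0.022 to 0.082, with 5 of 6 arrays closest to their own number. With the number as a replicate block 7 genes, 112 probe sets, 0 members and 1 member probe set were called.

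Of the named genes, Ern1 reversed on the median of probe sets (-0.039) and Vcp with array weights (-0.0088), neither called; the cause was not tested. The other 162 single-gene values kept their direction, of which 13 became called and 7 were no longer called. Signal limits Derl3, the 1 member left out with dim probe sets.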

Other observations

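Of 20 other genes of the unfolded protein response 10 lay above all wild type arrays on mutant replicate 1 and 10 below them on replicate 3 (50% each, against 34.8% and 33.3% of all genes). The other lists were not alike on replicate 1. There 8 of 21 degradation genes lay above and 9 below, 10 of 23 targeting, cleavage and glycosylation genes above and 11 below, and 12 of 21 folding genes above and 3 below. Of all genes, 34.8% lay above and 41.3% below on that array. On replicate 3, 52.4%, 60.9% and 47.6% of these lists lay below all wild type arrays. The next 3 genes outside the members were picked after their values were seen, because they split the mutant arrays as many members did, and are given without a test. Hspa5, which encodes BiP, the main chaperone of the ER, read 12.05, 12.08 and 12.11 on the wild type arrays and 12.42, 11.88 and 11.53 on mutant replicates 1, 2 and 3. Dnajb9, a BiP partner and a target of XBP1, read 7.55, 7.59 and 7.86 on the wild type arrays and 8.51, 7.48 and 6.78 on mutant replicates 1, 2 and 3, and Pdia5, a further disulfide isomerase, read 6.88, 6.81 and 7.02 on the wild type arrays and 7.83, 6.71 and 6.30 on mutant replicates 1, 2 and 3. In each case mutant replicate 1 was above and replicates 2 and 3 were below all wild type arrays. Ddit3, which encodes the stress factor CHOP of the PERK arm, read 7.59, 7.37 and 7.35 on the wild type arrays and 7.85, 7.47 and 7.44 on mutant replicates 1, 2 and 3, with replicates 2 and 3 inside the wild type range, and Dnajb11, a BiP cofactor, read 8.24, 8.25 and 8.27 on the mutant arrays.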
